A study of Mus musculus with 6 samples.

Results

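The endoplasmic reticulum (ER) folds and exports the proteins that a cell secretes, and 35 genes of ER protein folding, ER-associated degradation and the unfolded protein response were examined in mouse islets labelled as lacking Tead1 in beta cells. The genes were taken by name: each was represented by a probe set of the array whose annotated gene symbol was that gene alone, and, where a gene had several, by the one with the highest mean signal over the 6 arrays. All 35 had such a probe set, among 18193 genes measured. They were divided by role into 16 folding genes, 7 degradation genes, 5 sensors and regulators (Xbp1, Atf6, Ern1, Eif2ak3 and Wfs1) and 7 genes of the ATF4-CHOP branch. The first group, called Tead1KO, comprised islets from Tead1 knockout mice, in which the deletion was specific to beta cells. Tead1 encodes a DNA-binding factor of the Hippo pathway. The second, called Flox, comprised islets of floxed mice and served as the control. Both groups were males of the C57Bl6 strain aged 12 weeks, with 3 arrays per group, and total islet RNA was hybridized to the Affymetrix mouse expression array. The labels name neither the driver of the recombination nor the Cre status of the Flox mice, so an effect of Cre cannot be told apart from that of the Tead1 deletion. Whether each array stands for a different mouse is not stated, so the p-values cover the variation among these 6 samples, part of which may be technical. Whole islets were measured, so fewer cells of a type and less RNA per cell cannot be told apart.

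Unfolded protein in the ER is sensed by a trio of membrane proteins. IRE1 (Ern1) splices the Xbp1 mRNA so that it encodes an active transcription factor, ATF6 is cleaved to release one, and PERK (Eif2ak3) phosphorylates eIF2alpha, which slows translation in general while favouring that of ATF4. XBP1 and ATF6 induce chaperones, disulfide-forming enzymes and degradation factors, whereas ATF4 induces amino acid synthesis genes and, through CHOP (Ddit3), stress genes. Beta cells fold large amounts of proinsulin, and loss of WFS1 or of PERK causes diabetes in humans and mice.

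The known elements of this response differ between the groups of genes, and their sequences are shown because the report compares those groups. Promoters from RefSeq on the GRCm38.p6 build, from 250 bases before to 50 bases after the transcription start, were at hand for 30 of the 35 genes (all but Atf6, Hyou1, Manf, Derl1 and Ppp1r15b). They were searched on both strands for the ER stress response element (ERSE: CCAAT, 9 bases of any kind, CCACG), which ATF6 binds with the CCAAT-binding factor NF-Y. They were also searched for the unfolded protein response element (UPRE: TGACGTGG), whose last 5 letters are the reverse complement of CCACG, and for the element bound by ATF4 with a C/EBP protein (TGATGNAA). The ERSE was found in 10 of 30 promoters (33.3%), against 37 of 27025 genes (0.137%). The ATF4 element was found in 4 of 30 (13.3%), against 4.51% of all genes, and the UPRE in 0 of 30, against 0.714%. The 11 ERSE matches, 2 of them in Hsp90b1, are given 5′ to 3′ with CCAAT and CCACG in capitals and turned so that CCAAT comes first:
Hspa5 (chr2:34772015-34772053, plus strand): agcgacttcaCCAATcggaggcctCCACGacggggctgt
Hsp90b1 (chr10:86705628-86705666, minus strand): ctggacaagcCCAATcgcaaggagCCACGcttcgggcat
Hsp90b1 (chr10:86705523-86705561, plus strand): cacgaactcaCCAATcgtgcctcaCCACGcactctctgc
Calr (chr8:84847065-84847103, plus strand): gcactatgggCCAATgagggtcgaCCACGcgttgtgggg
Canx (chr11:50325790-50325828, minus strand): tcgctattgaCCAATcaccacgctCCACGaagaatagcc
Pdia6 (chr12:17266481-17266519, plus strand): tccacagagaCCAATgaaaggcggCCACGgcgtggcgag
Ero1b (chr13:12565672-12565710, minus strand): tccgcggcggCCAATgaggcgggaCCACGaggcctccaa
Dnajc3 (chr14:118937817-118937855, plus strand): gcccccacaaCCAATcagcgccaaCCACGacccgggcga
Creld2 (chr15:88819510-88819548, minus strand): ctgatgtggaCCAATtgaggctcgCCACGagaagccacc
Syvn1 (chr19:6046522-6046560, plus strand): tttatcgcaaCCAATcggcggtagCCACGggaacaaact
Derl3 (chr10:75893232-75893270, minus strand): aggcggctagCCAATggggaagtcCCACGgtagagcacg
These belong to 8 folding genes and, for Syvn1 and Derl3, to degradation genes. No gene of the ATF4-CHOP branch had an ERSE match in this window.

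The 4 matches to the ATF4 element are shown because 3 of them lie in the ATF4-CHOP branch, in Asns, Chac1 and Trib3, and the fourth in the degradation gene Herpud1. The element is in capitals, and each sequence is turned so that the element reads forward:
Asns (chr6:7693214-7693243, minus strand): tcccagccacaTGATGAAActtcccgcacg
Chac1 (chr2:119351038-119351067, minus strand): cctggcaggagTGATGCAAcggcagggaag
Trib3 (chr2:152344028-152344057, plus strand): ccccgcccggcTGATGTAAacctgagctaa
Herpud1 (chr8:94386306-94386335, minus strand): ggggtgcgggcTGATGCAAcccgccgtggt
The match of Trib3 began 15 bases after the transcription start and the others lay before it. A match to these letters is a description of the promoter and not of binding in these islets.

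Array quality differed within the Tead1KO group. The spiked hybridization controls read 12.09, 10.87 and 13.23 (mean log2 signal) in the Tead1KO arrays, in the order of their replicate numbers, and 11.89, 10.96 and 10.60 in the Flox arrays. Tead1KO replicate 3 also had the narrowest signal distribution (interquartile range 2.65, against 2.99 to 3.32 in the other 5 arrays) and the lowest mean correlation with the other arrays (0.969, against 0.984 to 0.986). Its 18S ribosomal RNA signal was the highest (12.90, against 11.08 to 12.01). In all 6 arrays the 3′ probe set of Gapdh read above the 5′ one, by 3.70 to 4.03 on the log2 scale, and that of actin by 3.09 to 3.38. The part of this in the values of single probe sets was not tested. Tead1 itself read 6.72, 7.49 and 5.95 in Tead1KO and 7.22, 6.99 and 7.40 in Flox at its brighter probe set (log2 signal), so the groups overlapped and Tead1KO replicate 2 read highest of the 6 arrays. The difference was -0.49 (limma adjusted p = 0.774, exact permutation p = 0.4, two-sided, where 0.1 is the smallest these arrays allow). Whether either Tead1 probe set lies in the deleted part of the gene was not known here, and with that open the genotype labels rest on the submitters alone. Of all 18193 genes, 94 passed an adjusted p of 0.05 (61 higher and 33 lower in Tead1KO). That count was 12 without Tead1KO replicate 1, 303 without Tead1KO replicate 2, 177 without Tead1KO replicate 3, and 20, 18 and 17 without Flox replicates 1, 2 and 3.

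None of the 35 genes passed the test between Tead1KO and Flox islets. With limma over all 18193 genes, 0 of 35 had an adjusted p under 0.05, where 0.517% of all genes did, and 0 passed at 0.1. At an unadjusted p under 0.05, 2 of 35 were lower in Tead1KO, Ero1b and Derl2, where 4.33% of all genes were. At that threshold 0 of 35 were higher, where 560 of all 18193 genes were. The 3 Tead1KO arrays all lay below the 3 Flox arrays for 4 of the 35 genes, Ero1b, Derl2, Atf6 and Sel1l, where 7.27% of all genes did so. They all lay above for 1 gene, Herpud1, where 5.8% of all genes did so. These counts are too small to be read as a result about the 35 genes. Among the 9330 genes at least as bright as the dimmest of the 35, 1015 had all Tead1KO arrays below and 489 had them all above. Of the same 9330 genes, 637 were lower at an unadjusted limma p under 0.05 and 290 higher. The median difference of the 35 genes was -0.15 on the log2 scale (Tead1KO minus Flox), with 25 lower and 10 higher. Of the 9330 genes at least as bright as the dimmest of the 35, 68.2% were lower in Tead1KO, with a median of -0.11. Under quantile normalization 20 of the 35 genes and 49.2% of the 9330 genes were lower, with medians of -0.02 and 0.005. With the hybridization control signal as a covariate, 22 of the 35 genes and 48.9% of the 9330 genes were lower. That signal was highest in Tead1KO replicates 3 and 1, so fitting it can also remove part of a difference between the genotypes. Without Tead1KO replicate 3, 22 of the 35 genes were lower, their median was -0.09, and 52.3% of the 9330 genes were lower.

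**Figure D1:**
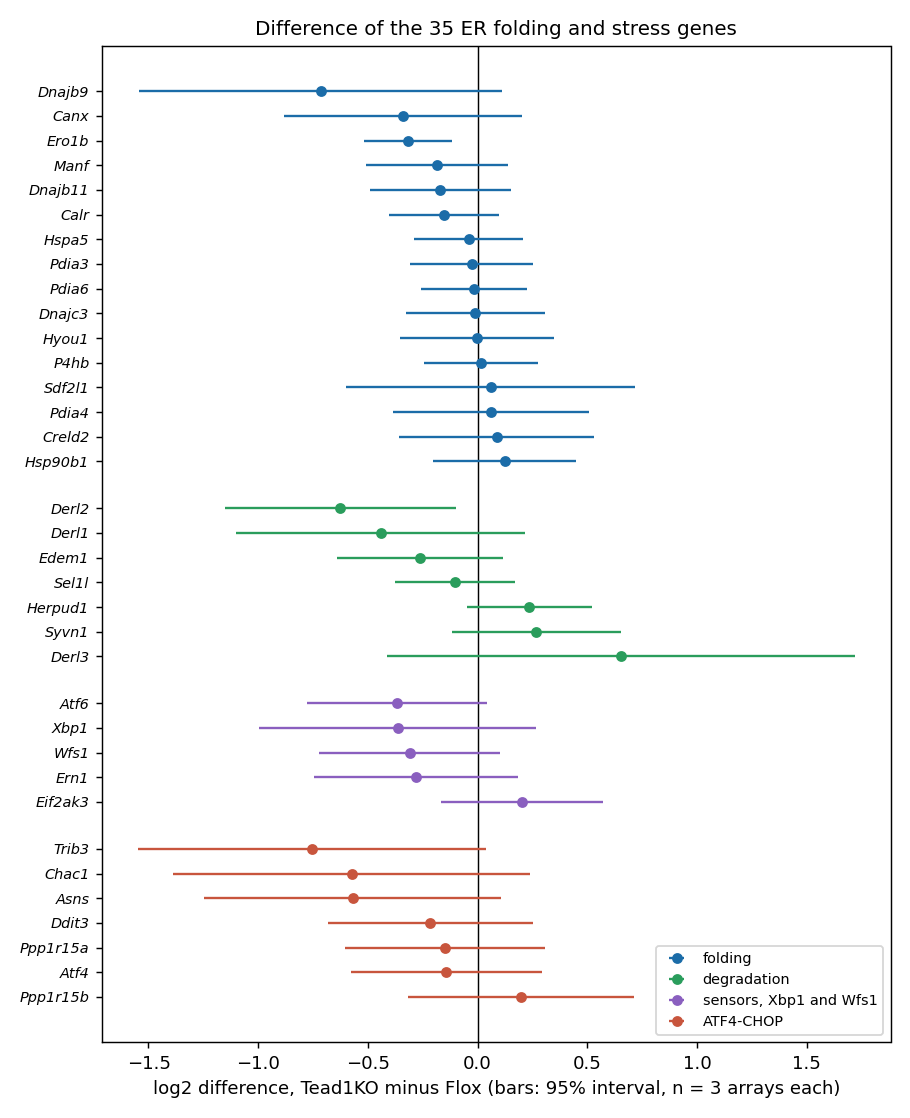
Log2 difference, Tead1KO minus Flox, of each of the 35 genes with its 95% interval from the limma fit (3 arrays per group), by group of genes. Only the intervals of Ero1b and Derl2 leave out 0, both on the lower side, and neither gene passed the test after adjustment over all genes.

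Of the 16 folding genes, most differed little between the genotypes: 13 lay within 0.2 of 0 on the log2 scale, and the median difference was -0.02 with 11 lower and 5 higher. The sign of that median turned under quantile normalization (0.03, with 7 of 16 lower). Hspa5 encodes BiP, the ER Hsp70 chaperone that also holds the stress sensors inactive. It read 13.81, 13.92 and 13.64 in Tead1KO and 13.88, 13.84 and 13.77 in Flox (log2 signal). The groups overlapped, and the difference was -0.04 (95% interval -0.29 to 0.21, limma adjusted p = 0.922). Its interval corresponds to 0.82 to 1.16 times the Flox level. This probe set lay near the top of the scale, and the next brightest one differed by -0.33, with all Tead1KO arrays below all Flox arrays. Hsp90b1, the ER Hsp90 chaperone, read 11.67, 11.99 and 11.66 in Tead1KO and 11.54, 11.71 and 11.70 in Flox (log2 signal). The Tead1KO arrays of Hsp90b1 lay among the Flox arrays except for replicate 2, which was the highest, and the difference was 0.12 (SE 0.14, limma adjusted p = 0.827).

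The protein disulfide isomerases, which make and reshuffle disulfide bonds, had differences near 0, with 95% intervals that reached 0.51 at most (Pdia4). The differences were 0.02 for P4hb, -0.03 for Pdia3, 0.06 for Pdia4 and -0.02 for Pdia6. The probe sets of P4hb and Pdia6 lay near the top of the scale (mean log2 signal 13.62 and 13.86). P4hb had no other probe set, and the dimmer one of Pdia6 differed by -0.005. Hyou1, which exchanges the nucleotide of BiP, differed by less than 0.01, and Sdf2l1, a partner of ER J-domain proteins, by 0.06. Creld2 and Manf, stress-inducible proteins of the ER that can be secreted, differed by 0.09 and -0.19. Without Tead1KO replicate 3, Sdf2l1 and Creld2 had the highest differences of the 16 folding genes, 0.39 and 0.30. The lectin chaperones of the glycoprotein folding cycle differed by -0.15 (Calr) and -0.34 (Canx). Canx read 11.81, 12.35 and 11.34 in Tead1KO and 12.12, 12.19 and 12.21 in Flox (log2 signal). Its lowest and highest arrays were both Tead1KO arrays, and without Tead1KO replicate 3 the difference was -0.09.

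Ero1b had the smallest p-value of the 35 genes. It encodes the ER oxidase, abundant in pancreatic islets, that passes oxidizing equivalents to protein disulfide isomerase and thereby to proinsulin. Its brightest probe set read 13.94, 13.95 and 13.90 in Tead1KO and 14.29, 14.24 and 14.20 in Flox (log2 signal). Every Tead1KO array lay below every Flox array, and the spread within each group was small (SD 0.027 in Tead1KO and 0.042 in Flox, n = 3 each). The difference was -0.32 (SE 0.09, limma adjusted p = 0.300), or 0.80 times the Flox level with a 95% interval of 0.70 to 0.92. It stayed at -0.30 without Tead1KO replicate 3 (adjusted p = 0.293). This probe set lay near the top of the scale, where the highest value of any probe set was 15.71. The other Ero1b probe sets were dimmer and gave wider differences. One read 11.85, 12.23 and 11.47 in Tead1KO and 12.27, 13.18 and 12.89 in Flox, a difference of -0.93. The other read 5.732, 5.895 and 5.817 in Tead1KO and 6.638, 7.004 and 6.710 in Flox, a difference of -0.97. In both, the Tead1KO arrays all lay below the Flox arrays, and the limma adjusted p over all 34945 probe sets was 0.455 and 0.0887.

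The upstream sequences of Hspa5 and Ero1b are shown because both hold an ERSE match, Hspa5 as the central chaperone gene and Ero1b as the gene with the smallest p-value. Each covers the 250 bases before the transcription start in the direction of the gene, with the ERSE match in capitals, which in Ero1b lies on the opposite strand:
Hspa5 (chr2:34771840-34772089, plus strand): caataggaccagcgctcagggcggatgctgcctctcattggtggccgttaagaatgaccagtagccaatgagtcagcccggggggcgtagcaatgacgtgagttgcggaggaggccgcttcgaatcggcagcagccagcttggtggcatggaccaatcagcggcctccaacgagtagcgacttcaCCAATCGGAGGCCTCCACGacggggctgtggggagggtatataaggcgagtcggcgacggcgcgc
Ero1b (chr13:12565633-12565882, plus strand): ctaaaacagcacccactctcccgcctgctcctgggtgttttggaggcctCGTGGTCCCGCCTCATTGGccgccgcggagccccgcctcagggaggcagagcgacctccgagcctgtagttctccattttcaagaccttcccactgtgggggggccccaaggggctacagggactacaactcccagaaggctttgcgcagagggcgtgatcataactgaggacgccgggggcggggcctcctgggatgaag
The match began 65 bases before the start in Hspa5 and 201 bases before it in Ero1b.

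The J-domain proteins, which stimulate BiP and bring it substrates, had differences of unlike size. Dnajb9 (ERdj4), an XBP1 target, read 9.75, 10.78 and 9.19 in Tead1KO and 10.49, 10.81 and 10.57 in Flox (log2 signal). Tead1KO replicates 1 and 3 lay below every Flox array, while replicate 2 was level with them. The difference was -0.71 (SE 0.36, limma adjusted p = 0.715). The Dnajb9 difference was -1.15 without Tead1KO replicate 2, with an adjusted p of 0.0443, the one setting of those run in which any of the 35 genes passed. In that setting 303 of all 18193 genes (1.67%) passed. Omitting Tead1KO replicate 3 left a difference of -0.36 (adjusted p = 0.946), and fitting the hybridization control signal as a covariate left -0.22 (adjusted p = 0.949). Dnajb11 (ERdj3) differed by -0.17 and Dnajc3 (P58IPK) by -0.01. A second Dnajc3 probe set read 9.68, 10.86 and 8.66 in Tead1KO and 10.50, 10.77 and 10.57 in Flox, a difference of -0.88. As for Dnajb9, Tead1KO replicates 1 and 3 lay below every Flox array and replicate 2 did not.

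**Figure D2:**
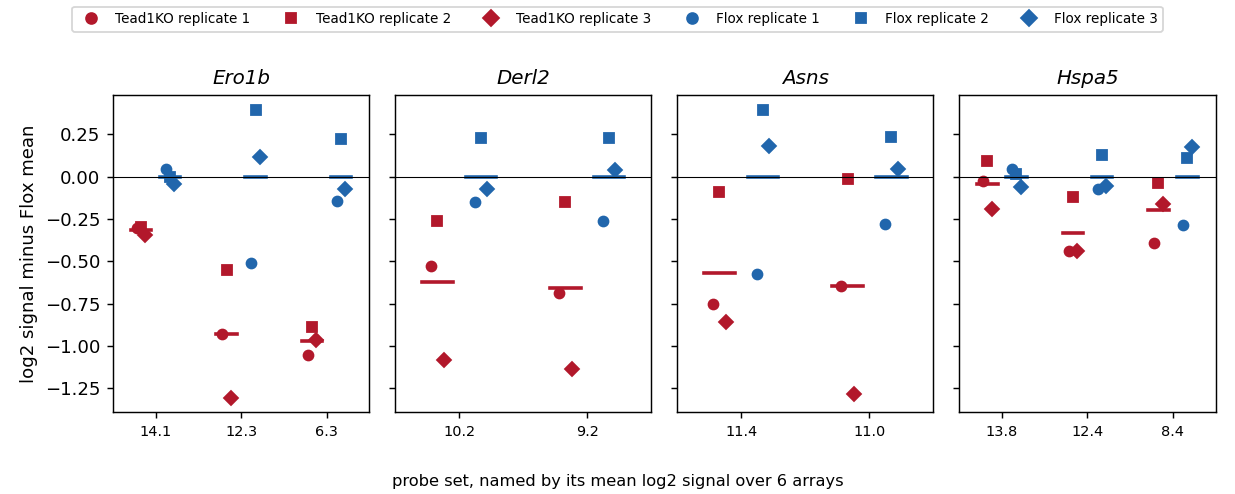
Log2 signal minus the Flox mean of the same probe set, for every probe set of Ero1b, Derl2, Asns and Hspa5 (points, 1 per array, with a bar at each group's mean), ordered by mean signal, which names the probe set on the horizontal axis. All 3 Ero1b probe sets separate the genotypes, while of the Hspa5 probe sets only the middle one (mean 12.4) does, at -0.33.

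The 7 degradation genes went both ways, with 4 lower, 3 higher and a median difference of -0.10, which turned to 0.02 under quantile normalization. Their products draw misfolded proteins out of the ER for the proteasome. Derl2, one of the Derlin proteins of the export channel, read 9.94, 10.21 and 9.39 in Tead1KO and 10.32, 10.70 and 10.40 in Flox (log2 signal). All Tead1KO arrays lay below all Flox arrays, replicate 3 farthest. The difference was -0.63 (SE 0.23, limma adjusted p = 0.549). Leaving out Tead1KO replicate 3 reduced it to -0.40 (adjusted p = 0.592). A second Derl2 probe set differed by -0.66, with overlapping groups. Derl1, its paralog, differed by -0.44 at its brightest probe set and by -0.13 to -0.34 at 3 others.

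Derl3, the third Derlin, lay on the other side. It read 8.95, 8.88 and 7.28 in Tead1KO and 7.25, 8.27 and 7.63 in Flox (log2 signal). Tead1KO replicates 1 and 2 were above every Flox array and replicate 3 was near the lowest of them, which gave a difference of 0.65 (SE 0.46, limma adjusted p = 0.772) with all arrays and 1.20 without Tead1KO replicate 3 (adjusted p = 0.147). Herpud1, a scaffold of the degradation complex, was the only one of the 35 genes with all Tead1KO arrays above all Flox arrays. It read 11.31, 11.18 and 11.23 in Tead1KO and 11.06, 10.96 and 10.99 in Flox (log2 signal). The difference was 0.24 (SE 0.12, limma adjusted p = 0.733), and its second probe set, at 0.0022, did not show it.

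The ubiquitin ligase of this pathway, Syvn1 (HRD1), and its partner Sel1l had differences of opposite sign. Syvn1 differed by 0.27 (limma adjusted p = 0.767), with overlapping groups. Its sign depended on the probe set, since the dimmer one differed by -0.01. Sel1l read 11.11, 11.17 and 11.12 in Tead1KO and 11.25, 11.25 and 11.21 in Flox (log2 signal), and the groups did not overlap. The difference was only -0.10 (limma adjusted p = 0.829), and it was 0.02 under quantile normalization. Edem1, which marks misfolded glycoproteins for removal, read 9.21, 9.53 and 9.23 in Tead1KO and 9.42, 9.66 and 9.68 in Flox (log2 signal). Tead1KO replicates 1 and 3 lay below the Flox arrays and replicate 2 among them, and the difference was -0.26 (SE 0.16, limma adjusted p = 0.767).

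Of the 5 sensors and regulators, 4 were lower in Tead1KO and 1, Eif2ak3, was higher, with a median difference of -0.31. Atf6 read 8.749, 8.996 and 8.474 in Tead1KO and 9.102, 9.188 and 9.031 in Flox (log2 signal). The Tead1KO arrays all lay below the Flox arrays, and the difference was -0.37 (SE 0.18, limma adjusted p = 0.704). The other Atf6 probe sets differed by -0.17 and -0.52. Wfs1, the Wolfram syndrome protein of the ER membrane, read 10.04, 10.62 and 10.20 in Tead1KO and 10.52, 10.61 and 10.65 in Flox (log2 signal). Replicates 1 and 3 of Tead1KO lay below the Flox arrays, replicate 2 lay among them, and the difference was -0.31 (SE 0.18, limma adjusted p = 0.757). Ern1, which encodes IRE1alpha, read 9.53, 10.23 and 9.73 in Tead1KO and 10.23, 10.02 and 10.07 in Flox (log2 signal). Replicates 1 and 3 of Tead1KO lay below the Flox arrays and replicate 2 was level with the highest of them, with a difference of -0.28 (SE 0.20, limma adjusted p = 0.772).

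Xbp1 varied as much within the genotypes as between them. It read 11.99, 12.72 and 11.68 in Tead1KO and 12.14, 12.76 and 12.57 in Flox (log2 signal). The groups overlapped, with a difference of -0.36 (SE 0.27, limma adjusted p = 0.775) that became 0.03 once the hybridization control signal was fitted as a covariate. Because that signal was not balanced between the genotypes, the covariate can also remove part of a genotype difference. The other 3 Xbp1 probe sets differed by -0.39, -0.16 and -0.01. These probe sets were not assigned to the spliced or unspliced mRNA, so the activity of IRE1 was not measured here. Eif2ak3, which encodes PERK, differed by 0.20 (SE 0.16, limma adjusted p = 0.781), with overlapping groups.

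In the ATF4-CHOP branch, 6 of 7 genes were lower in Tead1KO and the median difference was -0.21. The transcription factors Atf4 and Ddit3 differed by -0.14 and -0.21, and their targets Asns, Chac1 and Trib3 by -0.57 to -0.75. Atf4 read 10.86, 10.80 and 10.83 in Tead1KO and 11.34, 10.94 and 10.64 in Flox (log2 signal). The Tead1KO arrays lay inside the range of the Flox arrays, and the difference did not pass (SE 0.19, limma adjusted p = 0.850). A second Atf4 probe set, of a type that can match several transcripts, differed by -0.62. ATF4 is controlled largely through translation, which arrays do not read. Ddit3, which encodes CHOP, read 10.17, 9.71 and 10.19 in Tead1KO and 10.42, 10.37 and 9.93 in Flox (log2 signal). Here it was Tead1KO replicate 2 that was lowest, and the difference did not pass (SE 0.20, limma adjusted p = 0.800).

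The 3 genes of this branch with a match to the ATF4 element had the most negative differences of the branch. Ppp1r15b had no promoter to search, and Herpud1, the degradation gene with a match, was higher (0.24). Trib3, a pseudokinase induced by ATF4 and CHOP, read 6.38, 6.58 and 5.41 in Tead1KO and 6.96, 7.28 and 6.40 in Flox (log2 signal). The groups overlapped through 1 Flox array, replicate 3, and the difference was -0.75 (SE 0.34, limma adjusted p = 0.687). The dimmer Trib3 probe set separated the groups, with a difference of -0.36. Asns, asparagine synthetase, read 10.96, 11.63 and 10.86 in Tead1KO and 11.14, 12.11 and 11.90 in Flox (log2 signal). The groups overlapped through Tead1KO replicate 2 and Flox replicate 1, and the difference was -0.57 (SE 0.29, limma adjusted p = 0.725), with -0.65 at the second probe set. That second Asns probe set and the brighter Trib3 probe set were, like the second Atf4 probe set, of a type that can match several transcripts. Chac1, a glutathione-degrading enzyme, read 8.24, 9.07 and 7.86 in Tead1KO and 8.74, 9.54 and 8.61 in Flox (log2 signal). In both genotypes replicate 2 was the highest, and the difference was -0.57 (SE 0.35, limma adjusted p = 0.767). Without Tead1KO replicate 3 the differences of Trib3, Asns and Chac1 were -0.40, -0.42 and -0.31. Ppp1r15a (GADD34) and Ppp1r15b (CReP), which direct the dephosphorylation of eIF2alpha, differed by -0.15 and 0.20.

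**Figure D3:**
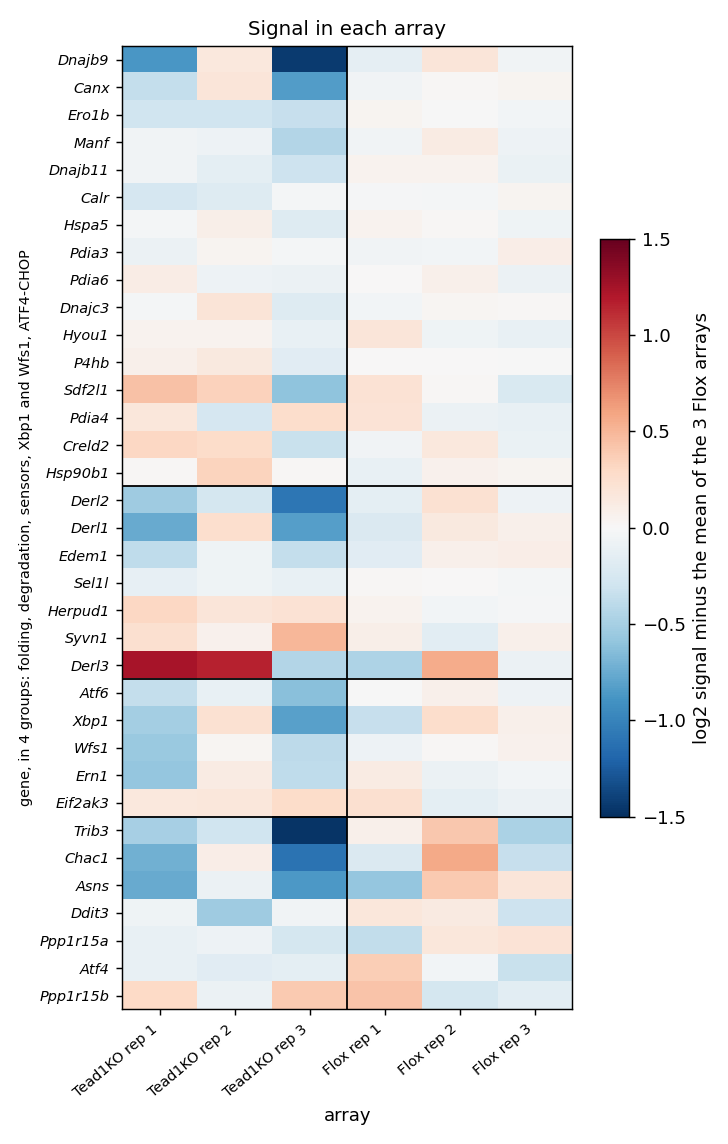
Log2 signal of each of the 35 genes in each array minus the mean of the 3 Flox arrays (colour), with Tead1KO arrays left of the Flox arrays and horizontal lines between the groups of genes. Tead1KO replicate 3 holds the lowest value for 19 of the 35 genes, and replicate 2 resembles the Flox arrays for many genes that are low in replicates 1 and 3.

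Set side by side, the median differences were -0.02 for the folding genes, -0.10 for the degradation genes, -0.31 for the sensors and regulators and -0.21 for the ATF4-CHOP genes. The differences of the group means were -0.10, -0.04, -0.22 and -0.31 in the same order, so the order of the groups depended on the summary used. The median difference of the folding genes exceeded that of the ATF4-CHOP genes by 0.19 on the log2 scale. This gap was 0.09 without Tead1KO replicate 2, 0.30 without Tead1KO replicate 3, 0.31 without Flox replicate 1 and also 0.31 without Flox replicate 3. The folding mean minus the ATF4-CHOP mean varied between arrays of a genotype with an SD of 0.11, pooled over both genotypes. That SD is of a gap in means and not of the gap in medians. No test was made of a gap between lists. The lists also differed in brightness, with a mean log2 signal in Flox of 11.90 for the folding genes and 9.60 for the ATF4-CHOP genes. Several folding genes lay near the top of the scale, and the part of signal level in the gap was not tested. In every Tead1KO array the ATF4-CHOP genes averaged lower than the folding genes relative to the Flox mean. This also held in Flox replicates 1 and 3. The means of each list by array follow. Relative to the Flox mean, the ATF4-CHOP genes averaged -0.28, -0.16 and -0.50 in the Tead1KO arrays in replicate order, against -0.02, 0.20 and -0.18 in the Flox arrays. Flox replicate 3 thus lay below Tead1KO replicate 2. The folding genes averaged -0.05, 0.05 and -0.30 in the Tead1KO arrays, against 0.01, 0.03 and -0.05 in the Flox arrays, so only Tead1KO replicate 3 stood clearly apart. The 9330 genes of the same signal range averaged -0.08, 0.07 and -0.35 in the Tead1KO arrays, which is the same order, and 58.3% of them had their lowest value in Tead1KO replicate 3, against 54.3% of the 35 genes. The part of that array's quality in these values was not tested.

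**Figure D4:**
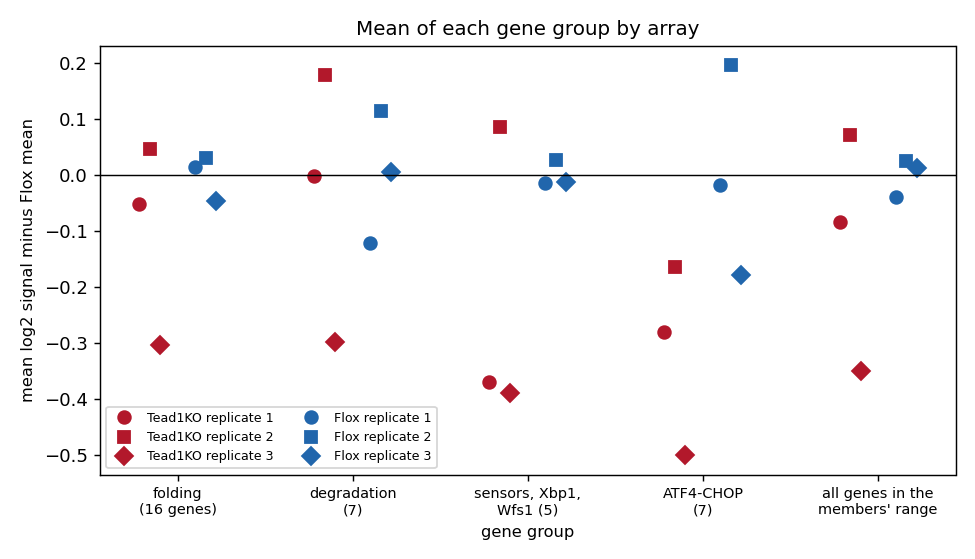
Mean log2 signal of each group of genes in each array, minus the mean of the 3 Flox arrays, with all 9330 genes at least as bright as the dimmest of the 35 at the right. Tead1KO replicate 3 is the lowest array in every group shown, from -0.30 for the folding and degradation genes to -0.50 for the ATF4-CHOP genes, and the 9330 genes average -0.35 in it.

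By promoter element, the 10 genes with an ERSE match had a median difference of -0.01, with 6 lower and a range of -0.34 (Canx) to 0.65 (Derl3). The 20 genes with a promoter and no such match had a median of -0.19, with 15 lower. The 4 genes with a match to the ATF4 element had a median of -0.57, with 3 lower and Herpud1 higher. These medians carry no test, and the genes with an ERSE are mostly those already described as folding genes.

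Across probe sets the direction was mostly shared within a gene. Of the 81 probe sets of the 35 genes, 76 lay above the range of unspiked bacterial controls (2.87 to 4.70), and 60 of these were lower in Tead1KO and 16 higher. With limma over all 34945 probe sets, 0 of the 81 passed an adjusted p of 0.05, where 0.269% of all probe sets did. At an unadjusted p under 0.05, 7 were lower and 0 higher, where 3.34% of all probe sets, dim ones included, were lower. All 7 belonged to Ero1b, Derl2, Atf4 or Hspa5. At the gene level, 68.2% of the 9330 genes in the signal range of the 35 were lower at their brightest probe set. Of the 23 genes with several probe sets above background, 15 were lower in all of them, 3 were higher in all (Eif2ak3, Herpud1 and Hsp90b1) and 5 were mixed (Ern1, Hyou1, Ppp1r15b, Sel1l and Syvn1). The second Hspa5 probe set read 12.14, 12.46 and 12.14 in Tead1KO and 12.51, 12.70 and 12.52 in Flox (log2 signal). Those groups did not overlap, with a difference of -0.33 (limma adjusted p = 0.814 over all probe sets).

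Other genes of the same machinery were read from 5 further lists, and 1 of their 121 measured genes passed the test. Vldlr, a lipoprotein receptor gene that ATF4 induces, read 8.61, 8.75 and 8.63 in Tead1KO and 9.95, 9.68 and 9.70 in Flox (log2 signal). All Tead1KO arrays lay below all Flox arrays, and the gene fell by 1.11 on the log2 scale (SE 0.15, limma adjusted p = 0.0277). Its call was lost without Tead1KO replicate 1 (adjusted p = 0.206) and without Flox replicates 1, 2 and 3 (0.149, 0.186 and 0.204), with differences of -1.02 to -1.16. Its call was also lost under median centring (adjusted p = 0.0589), without probe sets of suffix _x_at or _s_at (0.0794) and with the replicate number as a block (0.0638). Mthfd2, a mitochondrial folate enzyme and ATF4 target, differed by -0.92 (adjusted p = 0.112). Among the 32 ATF4 and CHOP targets of that list, 22 were lower, with a median of -0.17, where 68.2% of the 9330 genes were lower. At an unadjusted limma p under 0.05, 6 of the 32 were lower and 3 higher, where 788 and 560 of all 18193 genes were. The 3 higher genes were Txnip (0.77), Phgdh (0.74) and Stc2 (0.62).

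The remaining lists had no gene past the test. Of 28 other folding genes, 21 were lower (median -0.09), with Erp44, which retains ERO1 proteins in the ER, at -0.55 and Ero1a, the paralog of Ero1b, at -0.75. Of 20 other degradation genes, 13 were lower (median -0.09), with the ATPase gene Vcp at -0.35 and the ubiquitin-conjugating enzyme gene Ube2g2 at 0.27. Of 17 other sensors and regulators, 15 were lower (median -0.13), with the ER calcium pumps Atp2a2 at -0.30 and Atp2a3 at -0.46. Of 24 genes of translocation into the ER and of glycosylation, 22 were lower (median -0.24), with Sec63 at -1.12 and the signal recognition particle receptor gene Srpr at -0.33. Over all 121 genes, 76.9% were lower, where 68.2% of the 9330 genes were. Their median was -0.17 with all arrays and -0.03 without Tead1KO replicate 3. Without that array 15 of the 28, 8 of the 20, 10 of the 17 and 17 of the 24 genes were lower, in the order given. Of the 9330 genes, 52.3% were then lower.

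Markers of the cells in an islet were read beside these values. Insulin (Ins2) read 15.69 in Tead1KO and 15.69 in Flox, near the top of the scale, and glucagon (Gcg) 14.74 in each group (mean log2 signal), as the tissue label requires. Of 9 measured beta cell markers, 8 were lower in Tead1KO. For 5 of them all Tead1KO arrays lay below all Flox arrays, where 7.27% of all genes did so. These were Ucn3, Nkx6-1, Slc2a2, Glp1r and Pdx1, with differences of -0.95 to -0.66. Slc30a8 differed by -0.48, and G6pc2, Ins2 and Iapp by only -0.13, -0.005 and 0.03. The mean log2 signal of the 9 markers was 11.69, 12.01 and 11.41 in Tead1KO and 12.12, 12.34 and 12.29 in Flox. Their median difference was -0.66, and -0.43 without Tead1KO replicate 3. The 3 measured alpha cell markers had a median difference of 0.0016. Gcg and Ttr lay near the top of the scale (mean log2 signal 14.74 and 14.90) and differed by 0.0016 and 0.0004. Irx2, at 8.13, differed by 0.31 with overlapping groups (limma adjusted p = 0.775). All 17 measured acinar markers were lower (median -0.15), but their mean log2 signal spanned 10.68, 12.81 and 11.76 in Tead1KO and 10.86, 12.28 and 12.88 in Flox, so each genotype held arrays with low and with high acinar signal. All 7 stromal markers were higher, with a mean log2 signal of 7.24, 7.39 and 6.94 in Tead1KO and 6.85, 6.91 and 6.68 in Flox. B cell and plasma cell markers averaged 5.33, 5.08 and 4.97 in Tead1KO and 5.17, 5.15 and 6.58 in Flox. Flox replicate 3 stood apart in Ighm, the immunoglobulin M heavy chain, which read 6.98, 7.13 and 6.70 in Tead1KO and 6.34, 7.16 and 10.85 in Flox (log2 signal). Jchain, a defining marker of plasma cells, read 5.18, 4.18 and 3.61 in Tead1KO and 4.02, 3.95 and 5.26 in Flox, above the unspiked controls in Tead1KO replicate 1 and Flox replicate 3 only. The median differences of delta and PP cell, duct, endothelial and macrophage markers were -0.01, -0.17, 0.06 and 0.04. The part of these cell types in the values of the 35 genes was not tested.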

How the data were processed

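Total RNA from islets of 12-week-old male mice was hybridized to 6 arrays (3 Tead1KO and 3 Flox). The authors deposited a log2 signal for each probe set. Per the submitters' processing notes these came from Affymetrix Expression Console, whose version, normalization and summarisation method are not given. That the values are on a log2 scale was inferred from their range, 2.75 to 15.71. Of 45101 probe sets, 64 were controls, 34945 carried 1 gene symbol, 932 carried several and 9160 were unnamed here. Each of 18193 genes was represented by its probe set of highest mean signal. All 35 genes matched a RefSeq gene by identifier.

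Groups were compared with limma 3.58.1 in R 4.3.3 (lmFit and eBayes with trend, no covariate), with Benjamini-Hochberg adjustment over all genes and a threshold of 0.05. SE and intervals are those of the moderated fit. The procedure was tested on simulated data. Unspiked bacterial controls (27 probe sets) gave the background. The 35 genes and all lists were chosen with earlier results of these data known, so lists are described by counts and medians without a test. Values in every array are given for the 3 genes of each group with the smallest unadjusted p, for Hspa5, Hsp90b1, Xbp1, Atf4, Ddit3, Wfs1 and Ero1b, and, chosen after their values were seen, for Derl3, Sel1l and some further probe sets. Of the other lists, genes past the threshold and the 2 with the smallest unadjusted p are named. Txnip, Phgdh and Stc2 were added after their values were seen. Alternatives were quantile normalization, a filter on dim probe sets, eBayes without trend or with a robust prior, median centring, the mean of a gene's probe sets, omission of _x_at and _s_at probe sets, the replicate block, the hybridization controls as a covariate, each array left out, and a threshold of 0.1. These were applied to Vldlr as well after its value was seen. For arrays, their number limits the precision.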

Additional observations from a re-analysis of the deposited data

How the results depend on the processing

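Of 525 values (35 genes under 15 alternatives each), 487 kept their sign and stayed uncalled, 37 turned their sign while uncalled, in 16 genes, and 1 passed (Dnajb9, -1.15 without Tead1KO replicate 2). The count of called genes among the 35 was 0 under each alternative except that 1, with a range of 0 to 1 over the arrays left out. Without Tead1KO replicate 2, 1.67% of all genes passed. Under quantile normalization the differences of Pdia3, Pdia6, Dnajc3, Hyou1 and Sel1l became 0.0749, 0.0048, 0.0928, 0.143 and 0.01998. Under median centring those of Pdia4, P4hb and Sdf2l1 became -0.00093, -0.0454 and -0.0018. With the mean of a gene's probe sets Ddit3 differed by 0.0905, and without _x_at and _s_at probe sets Hyou1 differed by 0.177 and Syvn1 by -0.00999. With the hybridization controls as a covariate, Hspa5, Pdia3, Pdia4, Dnajc3, Xbp1, Ppp1r15a and Ppp1r15b differed by 0.0255, 0.0173, -0.15, 0.114, 0.0308, 0.0072 and -0.0554. With single arrays left out, the ranges that spanned 0 were -0.0577 to 0.0236 for Pdia3, -0.0475 to 0.111 for P4hb, -0.131 to 0.394 for Sdf2l1, -0.0264 to 0.297 for Creld2, -0.084 to 0.0222 for Pdia6, -0.108 to 0.0334 for Hspa5, -0.0409 to 0.219 for Pdia4, -0.109 to 0.0818 for Dnajc3, -0.061 to 0.0881 for Hyou1 and -0.308 to 0.0428 for Atf4. The count over all genes (94) was 153 with quantile normalization, 58 with median centring, 242 with the hybridization controls as a covariate and 12 to 303 with single arrays left out. The gap between the folding and ATF4-CHOP medians ranged from 0.0864 to 0.311 with single arrays left out. Causes of these changes were not tested. Same-numbered arrays correlated by 0.0635, 0.351 and -0.195 in their deviations from the group means, so the numbers were not taken to pair the arrays. With the replicate block 97 genes passed, 0 of them among the 35.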
